A study of Mus musculus with 4 samples.

Results

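Translation initiation and elongation factors are the proteins that load the ribosome onto messenger RNA and move it along. They were read here in brain cortex from SAMP8 males, mice of an inbred strain with early ageing and memory decline, as the probe sets whose platform symbol begins with Eif or Eef and a digit. Eif2ak2 and Eif2ak3 were left out by the rule, and 59 probe sets of 59 genes remained among 22206 gene probe sets. The rule reads gene names and no measured value. From 11 months of age the TCQA mice took 5 mg/kg of TCQA orally each day over 1 month, and the control mice received MilliQ water. All mice were SAMP8 males caged individually from 7 months of age for 4 months, and no array of another strain or of untreated younger mice was used, so the comparison concerns TCQA within SAMP8. Each group had 2 arrays, and nothing in the labels states whether they came from different mice, so p-values measure the spread between these arrays only. Every value is a log2 signal of whole cortex tissue, and fewer cells of a type and less RNA per cell cannot be told apart in it.

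Initiation begins when eIF2 carries the initiator tRNA to the small ribosomal subunit, with eIF1, eIF1A and eIF3 bound, while eIF4F recruits the capped messenger. eIF2B recharges eIF2 with GTP, and kinases that phosphorylate eIF2 alpha slow this step in the integrated stress response, a pathway studied in memory and in ageing brain. The 4E-binding proteins, targets of mTORC1, hold back the cap-binding protein eIF4E. In elongation eEF1A delivers tRNAs, eEF1B reloads eEF1A and eEF2 moves the ribosome along. Neurons use these steps to make proteins near synapses.

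The translation factor messages were close to the same level in TCQA and control cortex. After Benjamini-Hochberg adjustment of the limma p-values across the table, 0 of 59 members passed 0.05 (lowest adjusted p = 0.787), and 0% of all gene probe sets did. At an unadjusted p under 0.05 there was 1 member, Eif2b1, beside 6.24% of all gene probe sets. It was 1 higher gene and 0 lower genes, beside 3.38% of all gene probe sets higher and 2.86% lower. The depositors' criterion, which also asks for more than a 2-fold change, was met by 0 members and by 0.374% of all gene probe sets. The member means were higher with TCQA for 29 and lower for 30, and the median log2 difference was -0.03, beside 0.01 over all gene probe sets. The differences ran from -0.61 to 0.48, and 52 of the 59 (88.1%) were under 0.25 in size, as were 66.8% of all gene probe sets. For 58 of the 59 the 95% confidence interval of the difference lay wholly within a 2-fold change in either direction, and for 32 within a 1.5-fold change. The same held for 86.4% and 28.3% of all gene probe sets.

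The factors are mostly bright, and 53 of the 59 had a mean signal at or above the median of all gene probe sets, 7.14. Among these 53 the median size of the difference was 0.10, beside 0.15 for the 11103 gene probe sets at or above that median. Probe sets above that median also differed less within groups, by a median of 0.18 between the arrays of either group, beside 0.22 (TCQA) and 0.21 (control) for all gene probe sets. Over all 59 members the median size of difference was 0.14 between the TCQA arrays, 0.19 between the control arrays and 0.11 between groups. Over the 53 it was 0.14, 0.14 and 0.10. A difference between means of 2 arrays is by construction less noisy than a gap between arrays, so these values do not separate the groups.

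**Figure D1:**
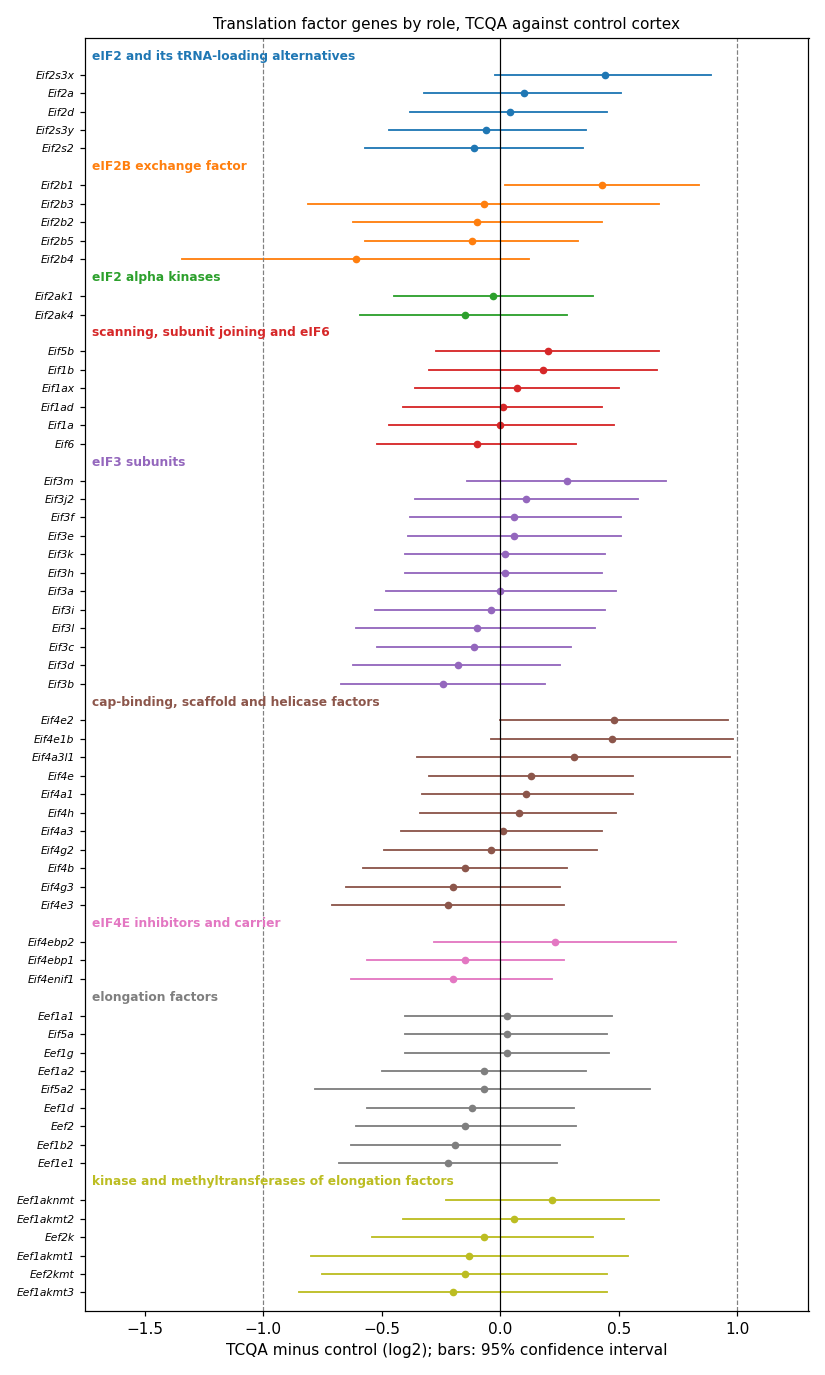
Difference TCQA minus control on the log2 scale for each of the 59 translation factor genes, grouped by role (points, with 95% confidence intervals from limma as bars), with dashed lines at a 2-fold change in either direction. The interval of Eif2b4 reaches beyond the 2-fold line, and the other 58 lie inside the lines.

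The sequences around the annotated transcription starts of 8 members are shown because these genes are among the 5 members with the largest differences (Eif2s3x, Eif2b1, Eif4e2, Eif2b4), are a close relative of one of them (Eif2s3y), or show the kinds of start that recur in the family (Eef1b2, Eif3f, Eef1a1). They come from RefSeq, build GRCm38.p6, with 60 bases before the start and 20 from it. Capitals mark the motif CCGGAAG or its reverse complement CTTCCGG, a core of ETS factor sites, or an unbroken run of C and T over the first transcribed base. TOP messages, whose translation is known to follow mTORC1, begin with a run of pyrimidines. The marked runs also count bases before the annotated start, so they do not sort TOP messages from others.
Eif2s3x, chrX:94212632-94212711, minus strand: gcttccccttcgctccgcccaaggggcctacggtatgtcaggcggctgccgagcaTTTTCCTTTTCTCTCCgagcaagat
Eif2s3y, chrY:1010535-1010614, plus strand: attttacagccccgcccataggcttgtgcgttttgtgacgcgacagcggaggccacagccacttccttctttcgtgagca
Eif2b1, chr5:124579112-124579191, minus strand: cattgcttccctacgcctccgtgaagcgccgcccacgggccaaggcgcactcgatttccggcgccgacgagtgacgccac
Eif2b4, chr5:31193120-31193199, minus strand: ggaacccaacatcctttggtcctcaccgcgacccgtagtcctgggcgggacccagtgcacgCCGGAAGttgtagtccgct
Eif4e2, chr1:87213851-87213930, plus strand: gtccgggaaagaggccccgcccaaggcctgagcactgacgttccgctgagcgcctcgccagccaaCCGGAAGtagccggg
Eef1b2, chr1:63176771-63176850, plus strand: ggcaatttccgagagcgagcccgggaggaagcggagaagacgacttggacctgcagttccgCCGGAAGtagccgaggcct
Eif3f, chr7:108934355-108934434, plus strand: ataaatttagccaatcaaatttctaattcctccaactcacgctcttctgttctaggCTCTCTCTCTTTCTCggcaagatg
Eef1a1, chr9:78481705-78481784, minus strand: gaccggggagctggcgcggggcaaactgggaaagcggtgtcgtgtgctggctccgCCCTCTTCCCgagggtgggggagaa

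A start window of 300 bases, 250 before and 50 from the first listed start, was found for 44 of the 59 members, Eif4e1b not among them. CCGGAAG on either strand was in 14 of the 44 (31.8%), and in 11.9% of the windows of 17492 protein-coding genes. A run of at least 8 C and T over the first base, counted on both sides of it, was in 5 of the 44 (11.4%), and in 3.46% of the same windows. These 5 were Eef1a1, Eif2b5, Eif2s3x, Eif3f and Eif3l. In Eif2s3x the run had 16 bases, of which 10 follow the first base, and in Eef1a1 it had 10, of which 4 do. In Eif2s3y the annotated first base is an a and a run of 12 follows it. Members with CCGGAAG had a median log2 difference of -0.05, and those without it 0.02. Members with the pyrimidine run had a median of 0.03, and those without it 0.00. Eif4e2 and Eif2b4, which lie at opposite ends of the family, both hold CCGGAAG just after their start. A match of letters is a description of the window and not evidence of binding or of regulation.

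eIF2 has 3 subunits, of which the beta and gamma subunits were measured. Eif2s3x, the X-linked gene of the gamma subunit, had log2 signals of 14.04 and 13.99 with TCQA, against 13.45 and 13.72 in control. Both TCQA arrays lay above both control arrays, a difference of 0.44 (SE 0.19, 95% confidence interval -0.02 to 0.89), or a 1.35-fold higher level (limma unadjusted p = 0.0569, adjusted p = 0.799). Without control replicate 1, the lowest array, the difference was 0.30, and it was 0.57 without control replicate 2. Its Y-linked relative Eif2s3y, whose protein can take the same place in eIF2, had signals of 12.38 and 12.35 with TCQA, against 12.41 and 12.43 in control. That gap of -0.06 was small, with a confidence interval of -0.47 to 0.36. The 2 genes are alike in sequence, so their probes may share some signal, and a difference between their responses was not tested. Eif2s2, the beta subunit, differed by -0.11 (SE 0.19), with overlapping groups. Eif2a and Eif2d, which can bring initiator tRNA to the ribosome without eIF2, differed by 0.10 and 0.04.

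The 5 genes of eIF2B did not move as a block, and they include both the smallest p and the largest difference of the family. Eif2b1, the regulatory alpha subunit, had signals of 9.03 and 8.99 with TCQA, against 8.57 and 8.59 in control. The arrays of each group were very close to each other and the groups were apart, by 0.43 (SE 0.17, 95% confidence interval 0.02 to 0.84, limma unadjusted p = 0.0443, adjusted p = 0.787), or 1.35-fold. Its p was over 0.05 without any 1 of the arrays (0.108 to 0.134), while the difference stayed between 0.41 and 0.45. Eif2b4, the delta subunit, had signals of 6.19 and 5.53 with TCQA, against 6.76 and 6.18 in control, all below the negative control median of 7.22. The groups overlapped, and the difference of -0.61 (SE 0.30) had an interval of -1.34 to 0.12, the only interval in the family to reach past a 2-fold change. Leaving out 1 array gave differences from -0.94 to -0.28.

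The other eIF2B subunits had overlapping groups. Eif2b3, the gamma subunit, had 9.09 and 8.43 with TCQA, against 8.53 and 9.13 in control, so each group held 1 high and 1 low array, and the means differed by -0.07. Eif2b2, the beta subunit, differed by -0.10 (SE 0.22). Eif2b5, the catalytic epsilon subunit, had 6.70 and 6.67 with TCQA, against 6.94 and 6.68 in control, and its signal was dim in both groups. Over the 5 subunits the median size of difference was 0.07 between the TCQA arrays and 0.47 between the control arrays, beside 0.14 and 0.19 for the family.

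Among the kinases of eIF2 alpha, Eif2ak1, the haem-regulated kinase, had 12.41 and 12.30 with TCQA, against 12.37 and 12.41 in control. Eif2ak4, which senses uncharged tRNA when amino acids are short, had 10.20 and 10.14 with TCQA, against 10.23 and 10.42 in control. Their differences were -0.03 (95% confidence interval -0.45 to 0.39) and -0.15 (-0.59 to 0.28). The messages of both kinases thus stayed within a 2-fold change in these intervals. Kinase activity and phosphorylated eIF2 alpha are not read by an expression array.

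**Figure D2:**
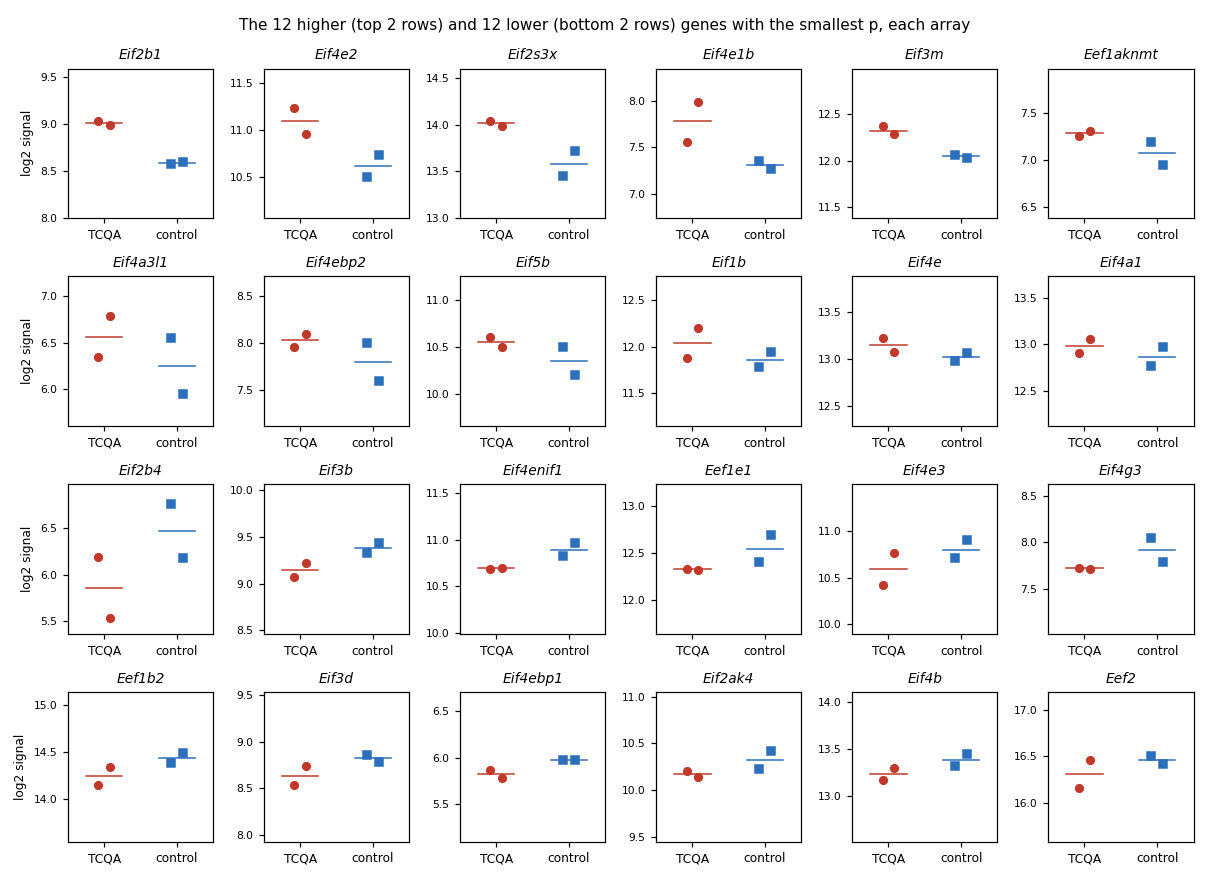
Log2 signal on each array (points) and group mean (lines) for the 12 genes with the smallest p among those with a higher TCQA mean (top rows) and the 12 with the smallest p among those with a lower TCQA mean (bottom rows), TCQA left and control right, each panel spanning the same range of log2 units. Eif2b1 shows tight pairs that stand apart, with 9.03 and 8.99 for TCQA and 8.57 and 8.59 for control, while Eif2b4 has overlapping groups.

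The factors of scanning and subunit joining were even. Eif5b, the GTPase that joins the ribosomal subunits, had 10.61 and 10.50 with TCQA, against 10.50 and 10.20 in control, a difference of 0.20 (SE 0.19). Eif1b, a close relative of the start-site factor eIF1, differed by 0.18 and the groups overlapped. Eif1ax and Eif1a, the X-linked and the autosomal gene of eIF1A, differed by 0.07 and 0.00, and Eif1ad, which has an eIF1A-like domain, by 0.01. Eif6, which keeps the large subunit from joining too early, differed by -0.10 (SE 0.17), with TCQA arrays at 8.96 and 8.85, against 8.99 and 9.03 in control. All 6 differences in this group were under 0.25.

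eIF3 is the large scaffold that holds the small subunit and the messenger together, and 12 of its genes were measured. Their median difference was 0.01, with 7 means higher and 5 lower. Eif3m, a peripheral subunit, had 12.37 and 12.28 with TCQA, against 12.06 and 12.03 in control. It was the eIF3 gene with the smallest p, at a difference of 0.28 (95% confidence interval -0.14 to 0.70, limma unadjusted p = 0.154). Eif3b, a core subunit, had 9.07 and 9.22 with TCQA, against 9.33 and 9.43 in control, a difference of -0.24 (SE 0.18). The cap-binding subunit gene Eif3d differed by -0.18 and the core subunit gene Eif3c by -0.11, each with both TCQA arrays under both control arrays.

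The largest core subunit, Eif3a, had 9.82 and 9.75 with TCQA, against 9.59 and 9.97 in control, and a difference of 0.00 with an interval of -0.48 to 0.49. The remaining eIF3 genes, Eif3e, Eif3f, Eif3h, Eif3i, Eif3j2, Eif3k and Eif3l, overlapped between groups, with differences from -0.10 to 0.11. The means of the eIF3 genes thus lay on both sides of 0. Eif3j2 has a near-identical copy, Eif3j1, and their signals may not be separable.

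Cap recognition held the largest positive difference. Eif4e2, also called 4EHP, binds the cap and represses translation of chosen messages. It had 11.24 and 10.96 with TCQA, against 10.50 and 10.73 in control. Both TCQA arrays were the higher, by 0.48 in the mean (SE 0.20, 95% confidence interval 0.00 to 0.96, limma unadjusted p = 0.0502, adjusted p = 0.798), or 1.40-fold. The difference was 0.34 without TCQA replicate 1 and 0.62 without TCQA replicate 2. Eif4e1b, known from oocytes, had 7.56 and 7.99 with TCQA, against 7.35 and 7.27 in control, close to the negative control median. Its difference of 0.47 (SE 0.21) was 0.25 without TCQA replicate 2 and 0.68 without TCQA replicate 1.

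Canonical Eif4e, the rate-limiting cap-binding protein, had 13.22 and 13.07 with TCQA, against 12.98 and 13.06 in control. Both TCQA arrays exceeded both control arrays, by a mean of only 0.13 (95% confidence interval -0.30 to 0.56). The atypical relative Eif4e3 differed by -0.22 (SE 0.20) with overlapping groups, and by -0.05 without TCQA replicate 1. So the 4 genes of cap-binding proteins went in both directions, with 3 means higher and Eif4e3 lower.

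The helicase and scaffold genes had differences from -0.20 to 0.31. Eif4a1, the helicase of eIF4F, had 12.91 and 13.06 with TCQA, against 12.77 and 12.97 in control, a difference of 0.11 (SE 0.18). Eif4a3, the helicase of the exon junction complex, differed by 0.01, and Eif4a3l1, a dim and closely related copy of it, by 0.31 (SE 0.27), a value that moved to 0.61 when control replicate 1 was left out and to 0.01 when control replicate 2 was. Of the helicase cofactors, Eif4b had 13.17 and 13.29 with TCQA, against 13.32 and 13.44 in control, a difference of -0.15, and Eif4h one of 0.08. Eif4g2, a scaffold that works without eIF4E, had 14.02 and 14.02 with TCQA, against 13.93 and 14.20 in control, and a difference of -0.04. Eif4g3, a scaffold that binds eIF4E, differed by -0.20 (SE 0.19), and by -0.06 without control replicate 1.

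Among the proteins that hold eIF4E back, Eif4ebp2, the main 4E-binding protein of brain, had 7.96 and 8.09 with TCQA, against 8.0 and 7.59 in control. The groups overlapped, and the difference of 0.23 (SE 0.21) was 0.02 without control replicate 2. Eif4ebp1 had 5.87 and 5.78 with TCQA, against 5.98 and 5.97 in control, at a dim signal. Eif4enif1, which carries eIF4E into the nucleus and into P-bodies, had 10.68 and 10.70 with TCQA, against 10.82 and 10.96 in control, a difference of -0.20 (95% confidence interval -0.63 to 0.22).

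**Figure D3:**
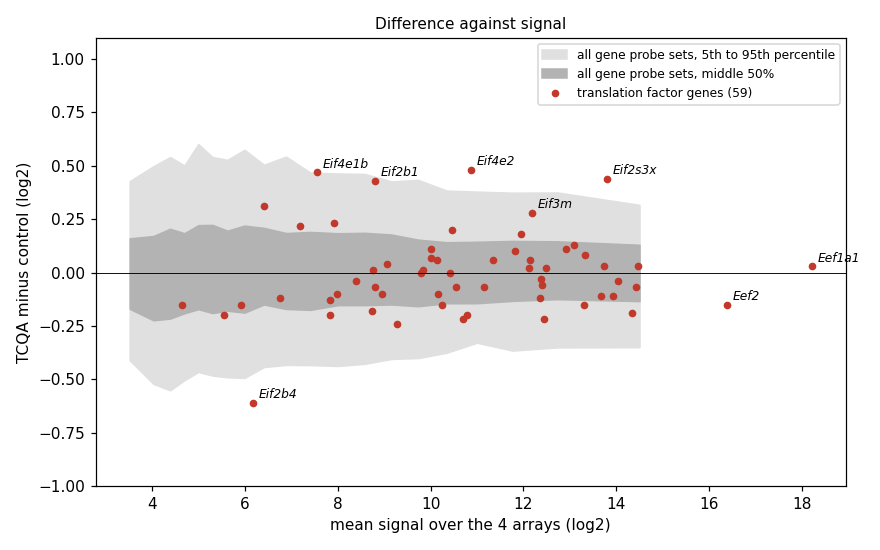
Difference TCQA minus control (log2) against mean signal over the 4 arrays (log2) for the 59 translation factor genes (points), over the middle 50% and the 5th to 95th percentile of all gene probe sets in 20 bins of signal (grey bands). Eif2s3x and Eif4e2, at differences of 0.44 and 0.48, lie above the upper band at their signals, and Eif2b4, at -0.61, lies below the lower one. Eef1a1 and Eef2, at 0.03 and -0.15, lie to the right of the bands.

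The 9 genes grouped here as elongation factors differed by between -0.22 and 0.03, and 6 of the 9 means were lower with TCQA. The lowest was Eef1e1, whose protein belongs to the multi-synthetase complex, and the next was Eef1b2 at -0.19. Eef1a1, the widely expressed form of eEF1A, had 18.14 and 18.33 with TCQA, against 18.21 and 18.19 in control, a difference of 0.03 (95% confidence interval -0.40 to 0.47). Eef1a2, the form that takes over in mature neurons and muscle, had 14.48 and 14.32 with TCQA, against 14.50 and 14.43 in control, a difference of -0.07 (-0.50 to 0.36). Neither form of eEF1A left the spread of its arrays. Eef1a1 has many processed copies in the mouse genome, so its signal may include them.

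The exchange factor eEF1B was represented by Eef1b2, Eef1d and Eef1g. Eef1b2, a catalytic subunit, had 14.14 and 14.34 with TCQA, against 14.38 and 14.49 in control, a difference of -0.19 (SE 0.18) that was -0.09 without TCQA replicate 1. Eef1d, the other catalytic subunit, differed by -0.12, and Eef1g, the structural subunit, had 14.39 and 14.58 with TCQA, against 14.46 and 14.44 in control. Eef1e1, a scaffold protein of the multi-synthetase complex, had 12.33 and 12.32 with TCQA, against 12.40 and 12.69 in control. Its groups did not overlap, but the difference of -0.22 was -0.07 without control replicate 2.

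Eef2, which translocates the ribosome, had 16.16 and 16.46 with TCQA, against 16.50 and 16.42 in control. The lowest array was TCQA replicate 1, and the difference of -0.15 (95% confidence interval -0.61 to 0.32) was 0.00 without it. Eef2k, the calcium-dependent kinase that stops eEF2 and so slows elongation in active neurons, had 10.35 and 10.66 with TCQA, against 10.57 and 10.58 in control, a difference of -0.07 (SE 0.19). Eif5a, which carries hypusine and helps the ribosome over difficult peptide bonds, had 13.69 and 13.82 with TCQA, against 13.76 and 13.69 in control. Its relative Eif5a2 had control arrays that lay apart, at 10.78 and 11.60, with TCQA arrays of 11.18 and 11.04 between them.

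Several genes of the methyltransferases that act on elongation factors were dim. Eef1aknmt, which methylates eEF1A, had 7.26 and 7.31 with TCQA, against 7.19 and 6.95 in control, near the negative control median, and a difference of 0.22 (SE 0.18). Eef1akmt1, Eef1akmt2, Eef1akmt3 and the eEF2 methyltransferase gene Eef2kmt overlapped between groups, with differences from -0.20 to 0.06. Eef1akmt3 and Eef2kmt lay under the negative control median in both groups.

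Read as separation of arrays, 21 of the 59 members had groups that did not overlap, beside 36.6% of all gene probe sets. TCQA lay above in 9 of them (18.9% of all gene probe sets) and below in 12 (17.8%). The 9 were Eif2a, Eif2b1, Eif2s3x, Eif3m, Eif4e, Eif4e1b, Eif4e2, Eif4h and Eef1aknmt. The 12 were Eif2ak4, Eif2s3y, Eif3b, Eif3c, Eif3d, Eif4b, Eif4ebp1, Eif4enif1, Eif4g3, Eif6, Eef1b2 and Eef1e1. Separation was thus no more frequent in the family than in the table. TCQA replicate 1 gave the lowest signal for 18 of the 59 members (30.5%), and control replicate 2 the highest for 20 (33.9%), beside 24.8% and 24.2% of all gene probe sets. The median member deviated by -0.01 to 0.02 from its own mean on each of the 4 arrays.

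The neighbouring pathways were read from lists of genes that are not members, written with earlier results of these data known. Of all 22206 gene probe sets, 11349 had a higher TCQA mean, beside which the counts of each list stand. In the integrated stress response, which works through eIF2, 14 of 21 probe sets had a higher and 7 a lower TCQA mean, with a median difference of 0.11, and 1 was called at an unadjusted p under 0.05, beside 6.24% of all gene probe sets. That was Slc7a11, the cystine transporter gene, at 11.46 and 11.19 with TCQA, against 10.58 and 10.68 in control, a difference of 0.69 (SE 0.19, limma adjusted p = 0.787). The transcription factor Atf4, whose translation rises when eIF2 alpha is phosphorylated, had 11.45 and 11.16 with TCQA, against 11.77 and 11.43 in control. Its groups overlapped, and the difference of -0.30 (SE 0.21) was on the other side of 0 from that of Slc7a11. The 2 probe sets of Ddit3, the stress factor CHOP, differed by 0.16 and -0.03.

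Of mTORC1 and the kinases upstream of the factors, 15 of 22 probe sets had a higher TCQA mean, the median was 0.06, and 2 were higher at an unadjusted p under 0.05, beside 3.38% of all gene probe sets. Deptor, an inhibitory partner of mTOR, had 9.24 and 8.90 with TCQA, against 8.62 and 8.21 in control, a difference of 0.65 (SE 0.23, limma adjusted p = 0.787). Castor1, an arginine sensor that restrains mTORC1, lay below the negative control median on average in either group and had a difference of 0.49 (SE 0.17). Mtor itself had 11.40 and 11.37 with TCQA, against 11.34 and 11.39 in control. Its difference was 0.02 (SE 0.17).

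Other initiation and cap-complex genes had a median of -0.06, with 9 of 20 higher. Pabpc4, a poly(A)-binding protein, passed the unadjusted threshold at -0.48 (SE 0.19), beside 2.86% of all gene probe sets lower at that threshold. The ABC proteins Abcf2 and Abcf1 differed by -0.36 and -0.30. Termination, recycling and rescue genes had a median of 0.05. Tcf25, of ribosome quality control, was the 1 of 10 past the unadjusted threshold, at -0.45 (SE 0.17), beside the same 2.86%. Mitochondrial translation factors had a median of -0.02 and none of 10 at an unadjusted p under 0.05 (0 by limma). The list of neuronal regulators of translation, which also holds the synaptic genes Arc and Camk2a, had a median of 0.08. Arc was the 1 of 18 past the unadjusted threshold, and it was lower, as were 2.86% of all gene probe sets at that threshold. It had 10.29 and 9.62 with TCQA, against 11.64 and 10.61 in control, a difference of -1.17 (SE 0.39). The synaptic kinase gene Camk2a, which is also among the excitatory neuron markers below, differed by -0.28.

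Genes that modify elongation factors, or serve the selenocysteine factor, had the highest list median, 0.19, with 10 of 12 higher. Eefsec, which brings selenocysteine tRNA to the ribosome and whose symbol lies outside the rule, had 8.59 and 8.52 with TCQA, against 9.59 and 9.39 in control. Pstk, the kinase that makes selenocysteine tRNA's precursor, had 9.99 and 10.11 with TCQA, against 9.34 and 9.47 in control. The differences of Eefsec and Pstk were -0.93 and 0.65, both with limma adjusted p = 0.787. Sephs2, which makes the selenium donor, differed by 0.31 (SE 0.17) at a dim signal. Of the multi-synthetase complex only 3 probe sets were named here besides the member Eef1e1, and these 3 had a median of -0.14. None of the lists had a gene past the adjusted threshold (0 by limma). Over the 8 lists 4 probe sets were higher and 4 lower at an unadjusted p under 0.05, which is 6.9% of 116, beside 6.24% of all gene probe sets.

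**Figure D4:**
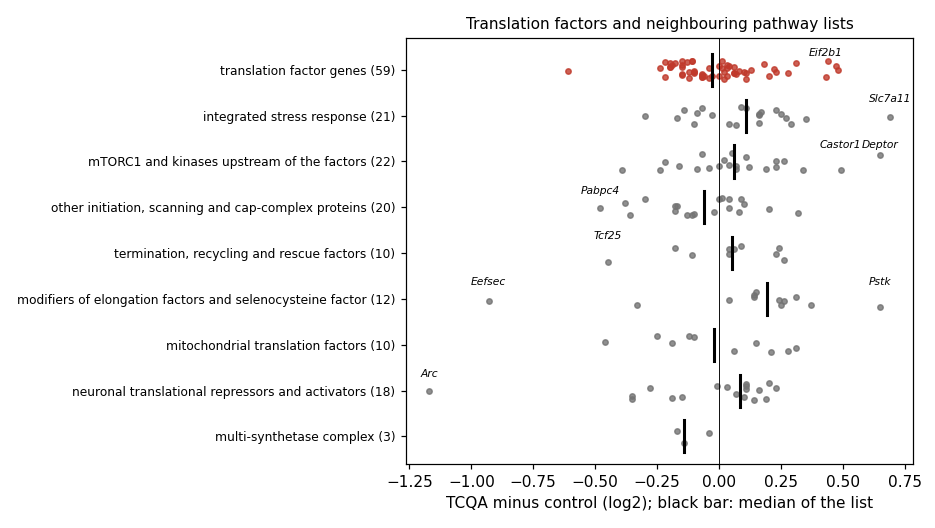
Difference TCQA minus control (log2) of each gene (points) for the 59 translation factors (top) and the 8 neighbouring lists, with the median of each list as a black bar and the genes at an unadjusted limma p under 0.05 named. Medians lie between -0.14 and 0.19, and the farthest points are Arc at -1.17 and Eefsec at -0.93.

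Tissue markers were read on the same arrays. The excitatory neuron markers were all above the negative control median. Their mean log2 signals were 13.41 and 12.96 with TCQA, against 13.65 and 13.46 in control. All 7 had a lower TCQA mean. Of these, 3 were at an unadjusted limma p under 0.05, beside 2.86% of all gene probe sets lower at that threshold. Inhibitory neuron markers had means of 12.01 and 11.81 with TCQA, against 11.51 and 11.59 in control, with 4 of 7 higher, and a median difference of 0.38. Among them Calb2 had 11.26 and 10.87 with TCQA, against 9.42 and 9.71 in control, a 2.83-fold higher mean (limma adjusted p = 0.787). It met the depositors' criterion, as did 0.374% of all gene probe sets, and in the other lists Arc and the meningeal marker Ogn met it too. The inhibitory markers Vip, Pvalb and Sst had lower TCQA means, with differences of -0.21, -0.20 and -0.02. Meningeal fibroblast markers had means of 8.95 and 9.16 with TCQA, against 7.83 and 8.85 in control, and all 6 had a higher TCQA mean, 3 of them at an unadjusted p under 0.05 (3.38% of all gene probe sets were higher at that threshold). Of the 7 thalamic neuron probe sets, which stand for 5 genes, 6 were higher in the mean, and their median was 0.32. The probe sets of Rora differed by 0.04, -0.02 and 0.08, and Tcf7l2 had 9.71 and 11.54 with TCQA, against 9.74 and 10.18 in control. Of the 5 endothelial markers 3 were higher in the mean, with a median of 0.15, Slco1a4 at 0.47 (SE 0.18) and Pecam1 at -0.26 (SE 0.18). Striatal neuron markers had means of 12.26 and 12.74 with TCQA, against 12.58 and 12.66 in control, and a median difference of -0.06. The astrocyte, oligodendrocyte and microglia lists had median differences of 0.21, 0.15 and 0.09. The choroid plexus list varied most, at 8.0 and 8.81 with TCQA, against 6.60 and 9.34 in control, with Ttr at 12.23 and 14.97 with TCQA, against 7.49 and 16.42 in control. The part of these shifts in any difference of a translation factor was not tested. Across the 4 arrays the median of all gene probe sets was 7.12 to 7.17, and arrays correlated across genes at 0.991 to 0.993.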

How the data were processed

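RNA of 4 cortex samples was hybridised to Clariom S mouse arrays. Each probe set has a deposited log2 value, which the authors made with SST-RMA in the Transcriptome Analysis Console (version 4.0.2), per the labels' series design text. This equalises the arrays, so levels are relative. The build behind the array annotation is not stated in the sources used here. Of 28846 probe sets, 6640 controls were set aside, and 22206 gene probe sets were tested, of which 19572 had a platform symbol.

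Groups came from the sample titles. TCQA and control were set against each other in limma 3.58.1 (R 4.3.3; lmFit, eBayes, two-sided, Benjamini-Hochberg over all 22206), with 2 residual and 4.23 prior degrees of freedom. No detection filter was applied, and the few arrays limit the precision. The procedure was tested on simulated data.

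The gene family was proposed, and the pathway lists and markers were written, with earlier results of these data known, although the member rule reads symbols only. Named in full are the 12 members per direction with the smallest p and a fixed set of core factors, and up to 3 genes per pathway list, plus Atf4, Ddit3, Mtor and Eefsec. Other members are given within their group. Start sequences come from RefSeq, and 44 of 59 members matched by gene ID. Eif1, Eif2s1, Eif3g, Eif3j1, Eif4a2, Eif4ebp3, Eif4g1 and Eif5 had no named probe set here and were not analysed. Alternatives were the replicate block, each array left out, 2 further normalizations, a filter on dim probe sets, other moderation of the variance, and control probe sets in the fit.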

Additional observations from a re-analysis of the deposited data

How the results depend on the processing

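Under all 11 alternatives no member passed the adjusted threshold or met the depositors' criterion (0 of the members by limma each time), and the median difference of the members lay between -0.04 and 0.00. The criterion count over all gene probe sets was 83, and 25 to 291 under the alternatives. The count of members at an unadjusted p under 0.05, 1 in the comparison reported, was 0 to 2 with 1 array left out. It was 2 after quantile normalization (Eif4e2 and Eif2s3x), beside 1396 of the 22206 gene probe sets. After centring on the median it was 2 (Eif4e2 and Eif2b1), beside 1372. Trend and robust priors gave 3 (Eif2b1, Eif4e2 and Eif2s3x), beside 1544, and no moderation gave 3 (Eif2b1, Eif3m and Eif3c), beside 1353. Among probe sets at or above the gene median, where fewer genes were fitted, the count was 4 of 53 members (Eif2b1, Eif4e2, Eif2s3x and Eif4e1b). In that fit 926 of the 11103 gene probe sets were called. With the control probe sets in the fit the count was 0, beside 947 of the 22206 gene probe sets. With the replicate block the count was 1, beside 1425 of the 22206 gene probe sets. That member was Eif2b4 (limma unadjusted p = 0.0187, adjusted p = 0.766) in place of Eif2b1 (limma unadjusted p = 0.0651, no adjusted p under 0.05). The labels number the arrays 1 and 2 in each group, but the deviations of same-numbered arrays from their group means correlated at 0.051 across genes. The labels do not say what the numbers stand for, and a shared batch or day was not tested.

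Of the 37 genes followed through the alternatives, 26 kept their sign throughout. The other 11 had small differences that changed sign with 1 array left out, over these ranges: Eef1a1 -0.06 to 0.13, Eef1a2 -0.15 to 0.01, Eef1g -0.06 to 0.13, Eef2 -0.30 to 0.00, Eef2k -0.23 to 0.08, Eif2ak1 -0.09 to 0.02, Eif2b5 -0.26 to 0.01, Eif3a -0.18 to 0.19, Eif4a3 -0.07 to 0.09, Eif4g2 -0.18 to 0.09 and Eif5a -0.04 to 0.09. Eif3a also changed sign after centring on the median, at 0.00. The cause was not tested. With 1 array left out the lone array of a group is assumed to vary like the others.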
